A study of Bos taurus with 10 samples.

Results

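The 8 enzymes described here make and break down prostaglandins: PTGS1, PTGS2, PTGES, PTGES2, PTGES3, AKR1B1, PTGIS and HPGD. They were found as all non-control probes of the array whose deposited gene name is one of these symbols, which gave 25 of 43653 probes and 8 of 17491 named genes. Each gene had between 2 and 5 probes, every probe was 60 bases long, and no other probe carried an accession of these genes. RNA of 10 samples of bovine embryos was measured, 1 array per sample, after the superovulated donor cows had received an intravenous infusion for 2 h that began 48 h into superovulation. Insemination followed at 108 and 120 h, and embryos were flushed from the uterus on day 7 after the first insemination. The groups were vehicle (DMSO, n = 2), senktide at 30 nmol/min (n = 4) and senktide at 300 nmol/min (n = 4), senktide being a peptide that activates the neurokinin-3 receptor. All groups share the superovulation and the artificial insemination. Ages and breeds of the cows, the number of embryos per sample and whether samples came from separate cows are not stated in the labels, so p-values here cover sample-to-sample spread alone, and part of that may be technical. The comparisons ask whether the infusion given to the cow was followed by different transcript levels in the embryo.

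Prostaglandins are made from arachidonic acid that phospholipases free from membranes. The cyclooxygenases PTGS1, which many tissues hold at a steady level, and PTGS2, which is induced by hormones, cytokines and growth factors, turn it into prostaglandin H2, and terminal synthases then make prostaglandin E2, prostaglandin F2α or prostacyclin. HPGD starts the breakdown of prostaglandins. Ruminant embryos and uterine tissue both make prostaglandins around the time of blastocyst growth and hatching, with PTGS2 as the better known cyclooxygenase of the conceptus.

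A spot is called detected below where the scanner software marked it as well above background. Vehicle arrays had 8.31% ± 1.60 (SD, n = 2) of 43803 spots detected, arrays at 30 nmol/min 14.5% ± 5.22 (n = 4) and arrays at 300 nmol/min 15.6% ± 4.49 (n = 4). The arrays lay on 3 slides: each group had 1 array on slide 1 and 1 on slide 2, while slide 3 carried no vehicle array, only replicates 3 and 4 at each senktide dose. Slide 3 averaged 19.1% detected spots, against 9.73% on slide 1 and 10.46% on slide 2. No spot was saturated.

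The labels name embryos as the tissue, while their extraction text speaks of endometrial samples. Each marker gene was read by 1 probe, the one with the highest mean scaled level among its probes detected on at least 2 arrays. Where a gene had none of these, its probe with the highest mean was read. Detection on a gene's other probes is not counted here. Of the trophectoderm markers, 6 of 10 genes of the list (among them KRT8, KRT18 and GATA3) were detected on every array and CDX2, ELF5 and TEAD4 on none. Whether these markers tell embryo from endometrium was not tested. The summed level of the trophectoderm list, in multiples of each array's scale, ranged over 25.1 to 34.1 in vehicle samples, 27.4 to 39.0 at 30 nmol/min and 25.4 to 42.2 at 300 nmol/min. KRT8 and KRT18 were its brightest genes. Inner cell mass markers (2 of 3 detected, SOX2 on every array) summed to 0.352 to 0.451, 0.241 to 0.430 and 0.216 to 0.400 in the same dose order, and trophoblast products (3 of 4, among them IFNT3 on 9 arrays) to 0.974 to 1.09, 0.543 to 0.896 and 0.653 to 0.870. Of 8 measured endometrium and oviduct markers, 3 were detected on any array and none on a vehicle array: CLU on 7 senktide arrays, MSX1 on 2 and MUC1 on 1. That list summed to 0.351 to 0.648 in vehicle samples, 0.149 to 0.539 at 30 nmol/min and 0.100 to 0.355 at 300 nmol/min, and OVGP1, HOXA10, PGR, ESR1 and SERPINA14 were detected on no array. The leukocyte list (3 of 8 genes detected on any array) summed to 0.536 to 0.537, 0.343 to 0.561 and 0.391 to 0.506 in the same dose order, with LYZ detected on all 10 arrays, PTPRC on 5 and ITGB2 on 4, the last 2 on no vehicle array, and CD14, CD68, S100A8, S100A9 and S100A12 nowhere. Stroma (2 of 5 genes) summed to 0.316 to 0.625, 0.069 to 0.360 and 0.0992 to 0.293, blood (1 of 3) to 0.157 to 0.196, 0.0902 to 0.252 and 0.0875 to 0.120, and cumulus and granulosa cells (1 of 6) to 0.301 to 0.385, 0.055 to 0.475 and 0.0729 to 0.292, with COL1A1, HBB, HAS2, PTX3 and FSHR detected nowhere. These sums include undetected genes at background signal. By the 1 probe read per gene, no gene of the endometrium and oviduct, stroma, blood, or cumulus and granulosa lists was detected on a vehicle array. Array scales were 79.4 and 123 for vehicle and 400 to 481 on slide 3, so the same background signal scales higher on vehicle arrays. Differences in sums of undetected genes are therefore not read as differences in cells. The part of other cells in the results below was not tested. In bulk RNA, fewer cells of a type and less RNA per cell cannot be told apart.

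Detection divided the 8 enzymes evenly. PTGS2, PTGES, PTGES3 and AKR1B1 were detected on at least 6 arrays by 1 probe or more, while PTGS1, PTGES2, PTGIS and HPGD were detected by none of their 12 probes on any array. PTGES3 and AKR1B1 were detected on all 10 arrays, and PTGS2 and PTGES only on senktide arrays. In each detected gene the probe nearest the end of its transcript was detected most often.

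**Figure D1:**
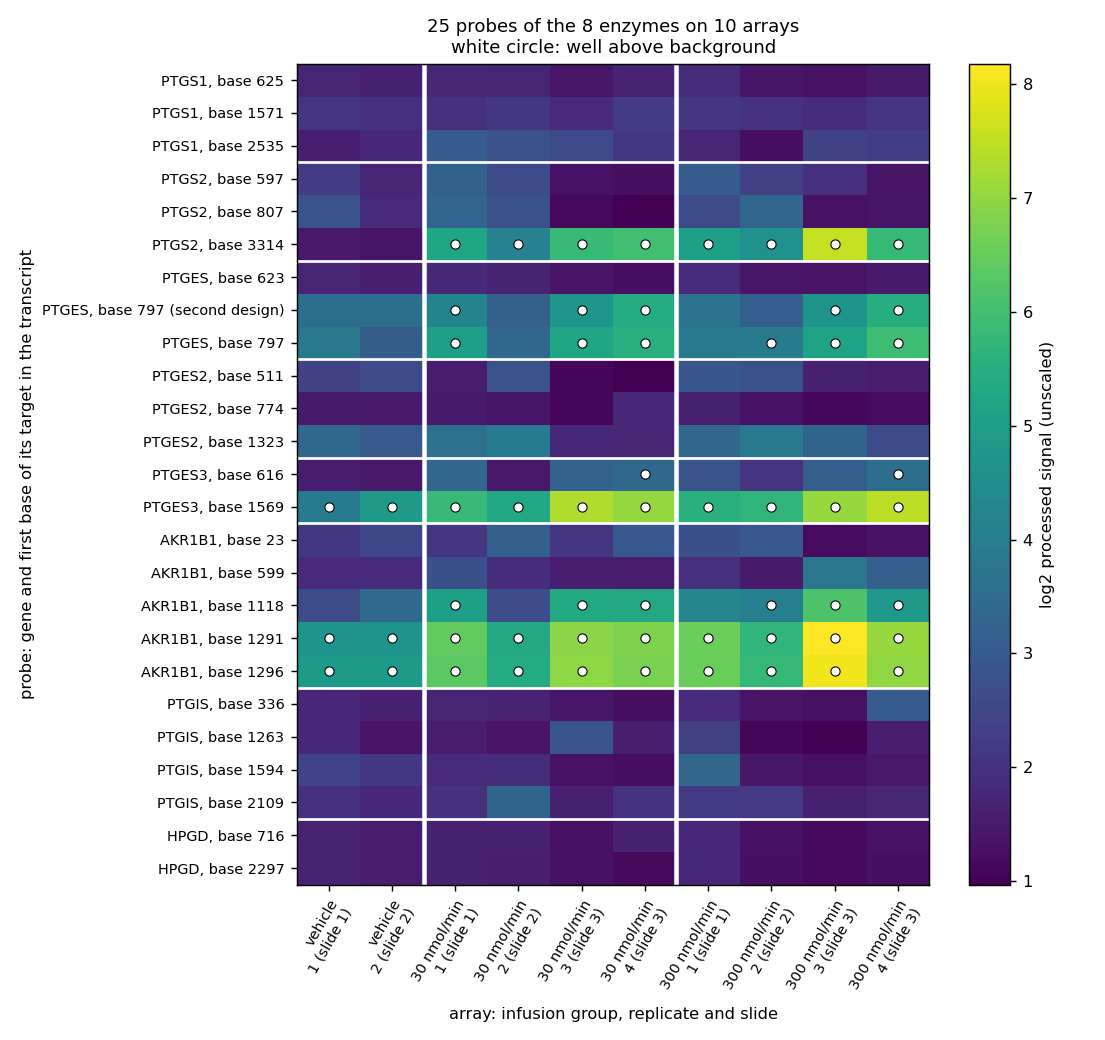
The 25 probes (rows, named by gene and by the first base of their target in the transcript) on the 10 arrays (columns, by infusion group, replicate and slide), coloured by the log2 processed signal before scaling between arrays. White circles mark spots well above background: PTGS2 has 8, all on senktide arrays and all for the probe at base 3314, while PTGS1, PTGES2, PTGIS and HPGD have none.

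A probe was tested if it was detected on at least 2 arrays, which kept 8 of the 25 probes (1 of PTGS2, 2 of PTGES, 2 of PTGES3 and 3 of AKR1B1) and 8935 of all 43653. Levels are log2 processed signals from which the array's scale was subtracted, the log2 of the 75th percentile over the 2491 probes detected on all arrays. In limma with Benjamini-Hochberg adjustment over all tested probes at a threshold of 0.05, none of the 8 probes passed in any comparison. Between 300 nmol/min and vehicle 0 of 8 passed, beside 0.0112% of all tested probes. At an unadjusted p under 0.05, 2 were higher and 1 lower at 300 nmol/min, where 5.89% of all tested probes were higher and 7.95% lower. Groups did not overlap for 2 probes that were higher (PTGS2 and the brighter PTGES3 probe, against 9.26% of all tested probes) and 1 that was lower (a PTGES probe, against 16.3% of all).

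Between 30 nmol/min and vehicle 0 of 8 passed, beside 0% of all tested probes, and at an unadjusted p under 0.05 there were 2 higher (4.94% of all tested probes) and 0 lower (6.32% of all). The same PTGS2 and PTGES3 probes lay wholly above vehicle (7.63% of all), and none lay wholly below (11.9% of all). Between 300 and 30 nmol/min 0 of 8 passed, beside 0% of all, and none had an unadjusted p under 0.05 (1.69% of all were higher and 1.31% lower) or groups without overlap (1.56% of all higher and 1.14% lower). With both doses pooled against vehicle 0 of 8 passed, beside 0.0336% of all, with 2 higher and 1 lower at an unadjusted p under 0.05 (6.09% and 8.76% of all), 2 wholly above vehicle (4.33% of all) and 0 wholly below (7.04% of all). These comparisons share the 2 vehicle arrays. Of the 8 tested probes, 5 had passed the detection filter through senktide arrays alone, so their counts are a description. The median log2 difference of all tested probes was −0.11 at 300 nmol/min, −0.11 at 30 nmol/min and −0.01 between the doses.

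PTGS2, the inducible cyclooxygenase, was measured by 3 probes to the same RefSeq transcript. Their sequences are shown because 1 of them alone gave signal above background. They start at bases 597, 807 and 3314 and lie on the minus strand of chromosome 16 (HGSC Btau_3.1, per the file headers) at chr16:65516536-65516595, chr16:65515616-65515786, which spans 171 genomic bases for a probe of 60 and so crosses an intron, and chr16:65512180-65512239. The first 2 probes have at least 1 forward frame without a stop and are given whole. The third has a stop in every forward frame, its place in coding or untranslated sequence was not analysed here, and its bases 1 to 30 are given.
PTGS2 base 597: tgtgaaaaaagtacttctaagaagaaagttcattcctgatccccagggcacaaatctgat
PTGS2 base 807: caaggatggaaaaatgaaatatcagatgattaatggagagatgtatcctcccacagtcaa
PTGS2 base 3314: tgttaaatatctgaatgactgaatctggga

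The PTGS2 probe at base 3314 had processed signals of 2.75 and 2.59 on the vehicle arrays, 36.8, 18.1, 56.9 and 63.5 on the arrays at 30 nmol/min, and 33.4, 24.8, 185 and 55.4 on those at 300 nmol/min. It was detected on all 8 senktide arrays and on neither vehicle array, where both values are surrogates that the scanner software sets in place of a signal near background. The groups did not overlap, since the dimmest senktide array was above both vehicle arrays. That array, replicate 2 at 30 nmol/min, was itself dim: its scale was 99.5, between the vehicle scales of 79.4 and 123, and 8.77% of its spots were detected, between 7.17% and 9.44% on the vehicle arrays. The lowest signal detected anywhere on the vehicle arrays was 13.5 and 12.5.

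On the scaled log2 axis PTGS2 averaged −5.21 ± 0.51 in vehicle samples (SD, n = 2), −2.56 ± 0.24 at 30 nmol/min (n = 4) and −2.30 ± 0.81 at 300 nmol/min (n = 4). The fitted differences from vehicle were 2.91 ± 0.46 (SE, adjusted p = 0.100 in limma) at 300 nmol/min and 2.65 ± 0.46 (adjusted p = 0.185) at 30 nmol/min, and with both doses pooled 2.78 ± 0.42 (adjusted p = 0.0905). None passed the threshold. These differences and their p rest on the vehicle surrogates, and the probe had passed the detection filter through senktide arrays alone. Since PTGS2 was not well above background in the vehicle group, its fold is only a bound, set against each vehicle array's lowest detected signal. That limit is approximate: on vehicle replicate 1 the brighter PTGES design was not detected at 14.4, above that array's lowest detected signal of 13.5. The gap could be wider: on replicate 3 at 300 nmol/min an AKR1B1 probe was not detected at 13.9, where the lowest detected signal was 9.93. The bounds may thus be too high, and those near 1 may not exceed 1. By that limit PTGS2 was at least 1.54-fold higher at 300 nmol/min than in vehicle and at least 1.29-fold higher at 30 nmol/min. With the doses pooled it was at least 1.41-fold higher. With all values on each array raised to at least that array's lowest detected signal, the fit gave log2 differences of 0.63 (adjusted p = 0.326) and 0.37 (adjusted p = 0.581). With the all-probe 75th percentile as the scale, these bounds were 3.48 and 2.69. Without vehicle replicate 2 no bound above 1 could be given at 30 nmol/min.

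Slides 1 and 2 each allowed a comparison of PTGS2 on the same slide. On slide 1 it was at least 1.095-fold higher at 300 nmol/min and at least 1.21-fold higher at 30 nmol/min than on that slide's vehicle array. On slide 2 the bounds were 1.77 and 1.79. All 4 bounds were above 1, but they use the same approximate limit, and that of 1.095 is close to 1. The probe was detected on the senktide arrays alone, and bounds for such a probe tend to exceed 1, so the 4 values are a description. A fit with slide as a block, which again uses the vehicle surrogates, gave 2.93 ± 0.52 (adjusted p = 0.150) at 300 nmol/min and 2.67 ± 0.52 (adjusted p = 0.204) at 30 nmol/min.

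Between the doses PTGS2 did not separate. The difference of 300 minus 30 nmol/min was 0.26 ± 0.38 (SE, 95% interval −0.58 to 1.096, adjusted p = 0.999), and it was −0.15, −0.02 and 0.59 on slides 1, 2 and 3. The higher mean at 300 nmol/min came with replicate 3, whose scaled level of −1.18 was the highest of the 10 arrays, while the other arrays at that dose had −2.43, −2.48 and −3.12. Without that replicate the difference between the doses was −0.12. A step between the doses within that interval was not detectable with these arrays.

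PTGS2 was one of 122 probes, 0.279% of all 43653, that were detected on every senktide array and on neither vehicle array. Only 7 probes (0.016%) had the reverse pattern, while vehicle arrays had fewer detected spots on average. With slides 1 and 2 alone, 131 probes (0.3%) were detected on all senktide arrays and neither vehicle array. Across the 10 arrays the scaled PTGS2 level correlated with the share of detected spots at r = 0.516, a description over points that share slide and group.

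The other PTGS2 probes were detected on no array. The probe at base 597 ranged from 2.40 to 9.21 in processed signal and the probe at base 807 from 1.98 to 10.03. The PTGS2 observation therefore rests on 1 probe.

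**Figure D2:**
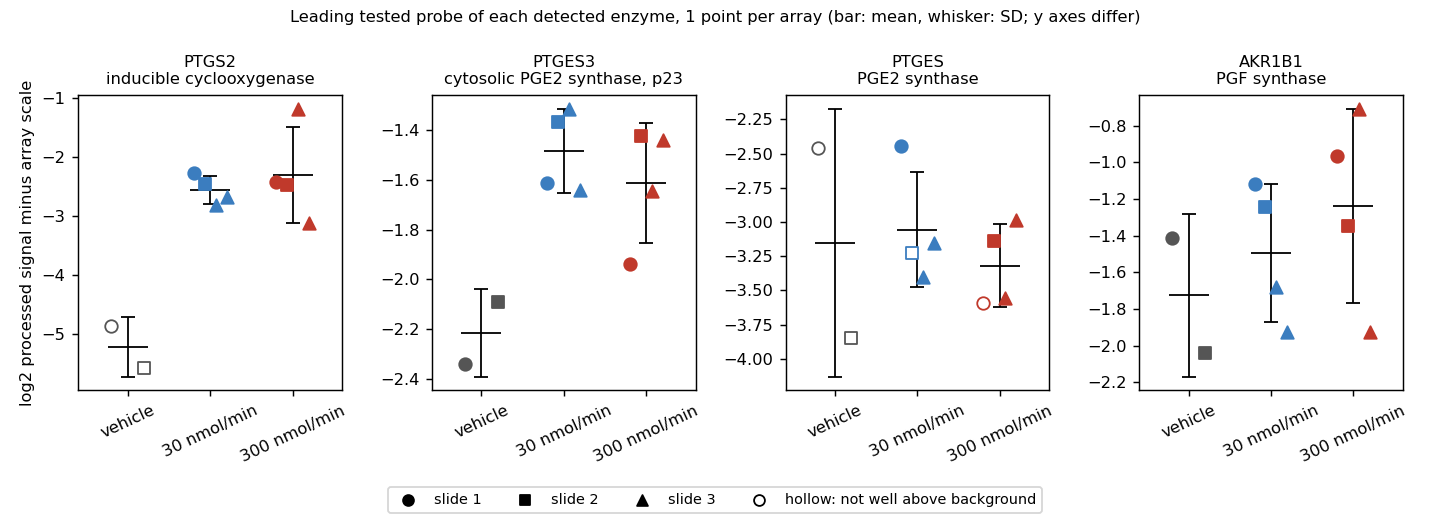
Scaled log2 level of the brightest tested probe of PTGS2, PTGES3, PTGES and AKR1B1 (y axes differ) on each array of the vehicle, 30 nmol/min and 300 nmol/min groups, with the mean (bar) and SD (whisker) per group. Symbols give the slide and hollow symbols arrays where the probe was not well above background. PTGS2 and PTGES3 lie above vehicle on all 8 senktide arrays, while PTGES and AKR1B1 overlap between groups.

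Of the terminal synthases of prostaglandin E2, PTGES3 was the most widely detected. PTGES3 is the cytosolic synthase and is also known as p23, a co-chaperone of HSP90 found in most cells. Its probe at base 1569, chr5:61347966-61348025 on the plus strand, is given by its bases 1 to 30.
PTGES3 base 1569: tggctatcctttcaagtgtctggtttactg

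The processed signals of this probe were 15.7 and 29.0 on the vehicle arrays, 58.4, 38.6, 161 and 130.2 on the arrays at 30 nmol/min, and 46.8, 51.5, 135 and 177 on those at 300 nmol/min. It was detected on all 10 arrays, and every senktide array was above both vehicle arrays, before and after scaling. Scaled levels averaged −2.21 ± 0.18 in vehicle samples (SD, n = 2), −1.48 ± 0.17 at 30 nmol/min (n = 4) and −1.61 ± 0.24 at 300 nmol/min (n = 4). PTGES3 thus measured 1.52-fold above vehicle at 300 nmol/min, a log2 difference of 0.60 ± 0.22 (SE, 95% interval 0.11 to 1.09) that did not pass after adjustment (adjusted p = 0.293). At 30 nmol/min it measured 1.66-fold above vehicle, by 0.73 ± 0.22 (95% interval 0.24 to 1.22, adjusted p = 0.312), and with both doses pooled by 0.67 ± 0.20 (adjusted p = 0.213).

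Within slide 1 the PTGES3 differences were 0.40 at 300 and 0.73 at 30 nmol/min, and within slide 2 they were 0.67 and 0.72. All 4 values lay above 0 with vehicle and senktide arrays scanned on the same slide. The doses differed by −0.13 ± 0.18 (95% interval −0.53 to 0.27, adjusted p = 0.999). Its scaled level correlated with the share of detected spots at r = 0.561 over the 10 arrays.

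The second PTGES3 probe, at base 616, crosses an intron, with a genomic span of 1153 bases at chr5:61345921-61347073. It was detected on 2 arrays, replicate 4 of each senktide group, and its signals ranged from 2.75 to 11.9. The fitted differences were −0.03 ± 0.41 at 300 and 0.12 ± 0.41 at 30 nmol/min, and with the vehicle group not well above background no fold is given. The offset seen at base 1569 was therefore not seen at base 616, a probe that lay near background on 8 of 10 arrays.

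PTGES, the microsomal prostaglandin E synthase that is induced together with PTGS2 in many tissues, had 3 probes. A pair of them target the same 60 bases, chr11:103800389-103800448 on the minus strand, and differ by the substitutions A10C and A59C, with positions counted from 1 at the 5′ end of the probe and the dimmer design's base given first. Bases 31 to 60 of both are shown, with the polyadenylation hexamer AATAAA in capitals.
PTGES base 797, brighter design: ggatgtAATAAAtgaggacttctcacctcc
PTGES base 797, dimmer design: ggatgtAATAAAtgaggacttctcacctac

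The brighter PTGES design had processed signals of 14.4 and 8.58 on the vehicle arrays, 32.8, 10.6, 37.9 and 45.7 on the arrays at 30 nmol/min, and 14.8, 15.7, 35.8 and 60.9 on those at 300 nmol/min. It was detected on 3 arrays of each senktide group and on neither vehicle array. After scaling the groups overlapped fully, at −3.15 ± 0.98 in vehicle samples (SD, n = 2), −3.06 ± 0.42 at 30 nmol/min (n = 4) and −3.32 ± 0.31 at 300 nmol/min (n = 4). The differences from vehicle were −0.17 ± 0.40 (adjusted p = 0.867) at 300 nmol/min and 0.10 ± 0.40 (adjusted p = 0.933) at 30 nmol/min. No fold is given, because the vehicle group was not well above background and the bound was under 1.

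The dimmer PTGES design had 11.9 and 12.03 on the vehicle arrays, 18.6, 9.14, 27.2 and 42.6 on the arrays at 30 nmol/min, and 13.1, 8.72, 25.9 and 44.2 on those at 300 nmol/min. It was detected on 3 arrays at 30 nmol/min, 2 at 300 nmol/min and no vehicle array. Scaled, all 4 arrays at 300 nmol/min lay below both vehicle arrays, by −0.76 ± 0.28 (SE, 95% interval −1.38 to −0.14, adjusted p = 0.293), although neither vehicle value was above background. The 2 designs correlated at r = 0.613 over the 10 arrays, and their differences from vehicle had opposite signs at 30 nmol/min (0.10 against −0.41). The sign of the PTGES difference also moved with the scaling of the arrays, together with the median of all tested probes, as given with the other scalings below. The third PTGES probe, at base 623, gave 2.40 to 3.72 and was detected on no array.

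PTGES2, the membrane-associated prostaglandin E synthase, was detected on no array. Its probes at bases 511, 774 and 1323 reached 7.44, 3.46 and 15.2 at most. The probe at base 1323 had signals of 10.2 and 7.86 on the vehicle arrays, 12.5, 15.2, 3.46 and 3.34 on the arrays at 30 nmol/min, and 10.2, 14.8, 9.83 and 6.01 on those at 300 nmol/min. Its 3 lowest values came from slide 3 and its 2 highest from slide 2, with both vehicle values in between. Those 2 highest values, 15.2 and 14.8, were not marked as detected, although the lowest detected signals on their arrays were 12.7 and 10.6.

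AKR1B1, an aldo-keto reductase known as a prostaglandin F synthase of the bovine endometrium, was detected on all 10 arrays by the probes at bases 1291 and 1296. Those probes share 41 bases and correlated at r = 0.975, so they count as repeat readings of the same site. Both hold the hexamer AATAAA, in capitals in the bases 31 to 60 shown here, and lie on the minus strand at chr4:101752306-101752319 and chr4:101752306-101752363, where the files place 14 and 58 of the 60 bases.
AKR1B1 base 1291: ttgcctcaAATAAAaatgctcttatgagtt
AKR1B1 base 1296: tcaAATAAAaagtgctcttatgagtttgaa

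The probe at base 1296 had processed signals of 29.8 and 30.0 on the vehicle arrays, 82.3, 42.0, 125 and 107 on the arrays at 30 nmol/min, and 92.0, 54.3, 258 and 127 on those at 300 nmol/min. Before scaling every senktide array was brighter than both vehicle arrays. After scaling the groups overlapped, at −1.73 ± 0.45 in vehicle samples (SD, n = 2), −1.49 ± 0.38 at 30 nmol/min (n = 4) and −1.24 ± 0.53 at 300 nmol/min (n = 4). AKR1B1 measured 1.40-fold above vehicle at 300 nmol/min (log2 difference 0.49 ± 0.37, 95% interval −0.35 to 1.33, adjusted p = 0.533). At 30 nmol/min it measured 1.18-fold above vehicle (0.23 ± 0.37, 95% interval −0.60 to 1.07, adjusted p = 0.817). The difference of 300 minus 30 nmol/min was 0.26 ± 0.30 (95% interval −0.43 to 0.94, adjusted p = 0.999).

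The overlapping AKR1B1 probe gave 0.75 ± 0.38 at 300 nmol/min (adjusted p = 0.396) and 0.45 ± 0.38 at 30 nmol/min (adjusted p = 0.632). Within slides 1 and 2 the probe at base 1296 stood 0.45 and 0.69 above vehicle at 300 nmol/min, and 0.29 and 0.80 above it at 30 nmol/min. The mean of the slide 3 arrays minus that of slides 1 and 2 was −0.62 at 30 nmol/min and −0.16 at 300 nmol/min, where slide 3 held both the highest array (−0.71) and the lowest (−1.93). A further AKR1B1 probe, at base 1118, was detected on 3 arrays of each senktide group and on no vehicle array, with differences of 0.39 ± 0.46 and 0.34 ± 0.46 at 300 and 30 nmol/min. The probes at bases 599 and 23 were detected nowhere. Whether related aldo-keto reductase transcripts added to these signals was not tested.

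PTGS1, the constitutive cyclooxygenase, was detected on no array by its probes at bases 625, 1571 and 2535, whose highest signals were 3.71, 4.58 and 8.45. PTGIS, which makes prostacyclin, was detected on no array by its 4 probes, with highest signals of 8.30, 7.23, 10.2 and 9.85 at bases 336, 1263, 1594 and 2109. HPGD, the dehydrogenase that inactivates prostaglandins, gave 2.22 to 3.46 at base 716 and 2.21 to 3.42 at base 2297, and 19 of its 20 values were surrogates. Since the lowest detected signal was 9.47 to 14.9 depending on the array, these genes were below what the arrays could show, and no difference between groups is given for them.

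**Figure D3:**
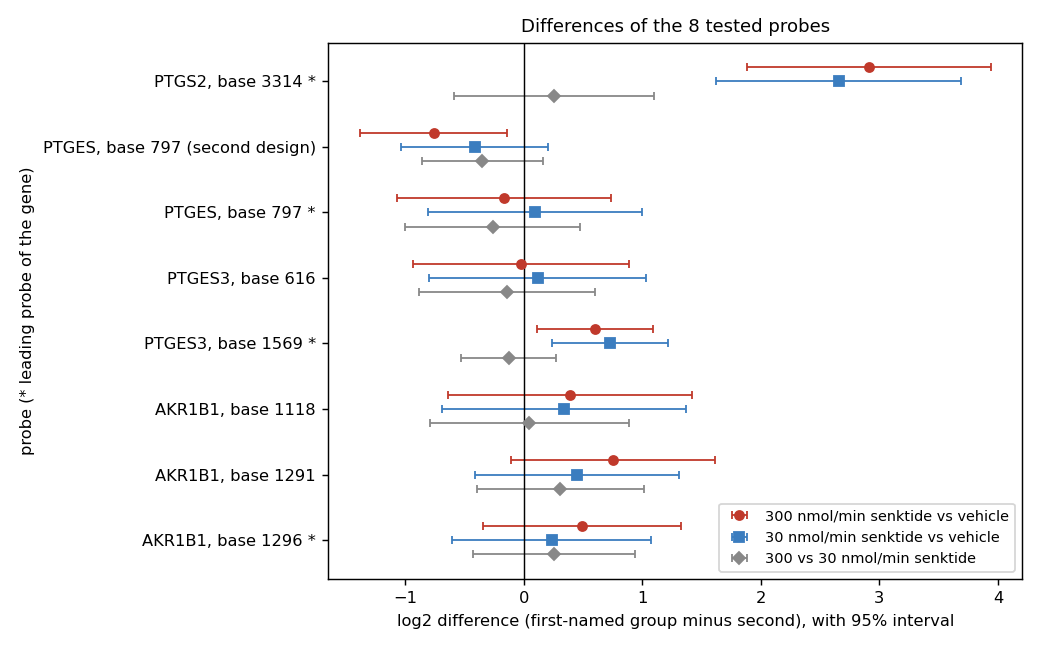
Log2 differences (points) with 95% intervals (whiskers) of the 8 tested probes for each dose against vehicle and for the higher dose against the lower, with asterisks on the brightest tested probe of each gene. PTGS2 and the PTGES3 probe at base 1569 lie right of 0 in both comparisons with vehicle, at 2.91 and 2.65 and at 0.60 and 0.73, and no adjusted p passed the threshold. The PTGS2 values use vehicle surrogates and are no bound.

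The scaling of the arrays set how large these differences were. Scaled by the 75th percentile of all probes, the median tested probe was itself 1.06 higher at 300 nmol/min and 0.95 higher at 30 nmol/min, against −0.11 at both doses under the scaling used here. Both scalings subtract 1 constant per array, so the distance of a gene from that median is the same in both by construction. PTGS2 stood 3.02 above it at 300 nmol/min and 2.76 at 30 nmol/min, against 3.80 and 3.57 after quantile normalization and 0.79 and 0.71 after normexp background correction with quantile normalization. PTGES3 stood 0.71 and 0.84 above it under the scaling used here. PTGES itself stood at 1.01 at 300 nmol/min with the all-probe percentile, against −0.17 under the scaling used here. Relative to the median PTGES stood at −0.06 and 0.20 and AKR1B1 at 0.60 and 0.34. All PTGS2 differences from vehicle under these scalings are taken against vehicle values below detection. After quantile normalization the PTGS2 difference passed the threshold, at 4.17 (adjusted p = 0.0072) for 300 nmol/min, 3.89 (adjusted p = 0.0091) for 30 nmol/min and 4.03 (adjusted p = 0.0041) for the doses pooled. After normexp background correction with quantile normalization it passed at 300 nmol/min (0.88, adjusted p = 0.041) and pooled (0.83, adjusted p = 0.031), and not at 30 nmol/min (adjusted p = 0.074). The pooled PTGS2 difference also passed without replicate 3 at 300 nmol/min (2.596, adjusted p = 0.042) and when detection on at least 4 arrays was required (2.78, adjusted p = 0.04997). PTGS2 was above vehicle in all 23 alternatives for each of these 3 comparisons, and so was PTGES3, whose adjusted p ranged from 0.061 to 0.890. Several of these alternatives return the same difference or shift all probes alike, so that count is a description. For PTGS2 its sign rests on vehicle values below detection.

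**Figure D4:**
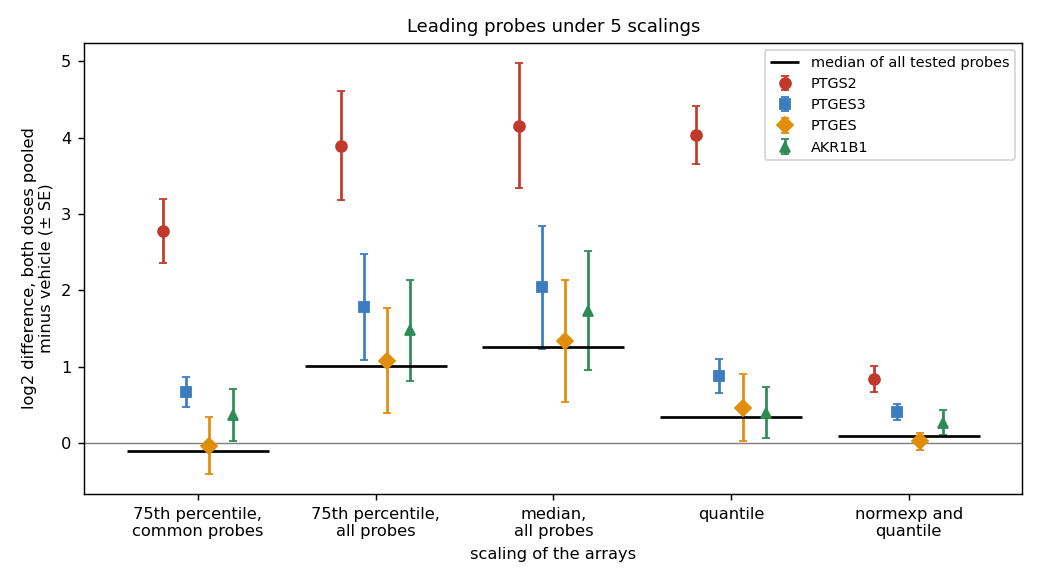
Log2 difference of both doses pooled minus vehicle (± SE) for the brightest tested probe of 4 enzymes under 5 scalings of the arrays, with the median of all tested probes as a black line. The difference of PTGS2 stays above that median in all 5, that of PTGES stays within 0.12 of it, and the whole set moves with the scaling, from a median of −0.11 to a median of 1.26.

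The detected enzymes had in common that their latest probe gave the most detection, in 4 of 4 genes. The same held for 78.4% of the 3478 RefSeq transcripts on the array whose probes differed in detection, while the earliest probe gave the most in 12.1%. The hexamer AATAAA, searched on the probe strand and its reverse complement, occurred in 4 of the 25 enzyme probes, both PTGES designs and both late AKR1B1 probes, and its reverse complement in 0. Of all probes 9.35% held it on the probe strand, 3.46% in reverse complement and 18.6% of the tested probes on the probe strand. A match is a string of letters, and its use as a polyadenylation signal was not tested.

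The scaled levels of PTGS2 and AKR1B1 correlated at r = 0.643 over the 10 arrays and at r = 0.843 over the 8 senktide arrays, where replicate 3 at 300 nmol/min was the highest for both. PTGS2 and PTGES3 correlated at r = 0.661 over 10 arrays and at r = −0.354 over the senktide arrays. PTGES had r between −0.07 and 0.06 with the other 3 over 10 arrays. These points share slides and scales, and no test was made. The named genes whose tested probe was most like PTGS2 over the 10 arrays were ACLY (r = 0.957), TMBIM6 (r = 0.939), CAPZA1 (r = 0.919), ANXA2 (r = 0.915) and SCARB2 (r = 0.910). Of these ACLY, TMBIM6 and CAPZA1 were detected on all 10 arrays, and ANXA2 and SCARB2 on 4 and 5, none of them vehicle. Each r with PTGS2 over the 10 arrays includes its vehicle surrogates of −4.85 and −5.57, far below its senktide values. The genes most like AKR1B1 were SLC44A4 (r = 0.969), PLS1 (r = 0.902) and PRSS23 (r = 0.896), detected on 8, 5 and 10 arrays. SLC44A4 and PLS1 were detected on no vehicle array.

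Around these enzymes, 62 further gene names of 6 lists were examined, of which 55 had a probe, 17 were detected on any array and 14 were tested. These are counts of names, and some are synonyms: PTGR3 and ZADH2 were read by the same probe, which was not detected. None passed the threshold in any of the 4 comparisons (limma, adjusted), and at an unadjusted p under 0.05 there were 2 of 14 at 300 nmol/min, 1 at 30 nmol/min and 1 between the doses. Of all tested probes 5.89% were higher and 7.95% lower at that p at 300 nmol/min, 4.94% and 6.32% at 30 nmol/min, and 1.69% and 1.31% between the doses. Their median difference from vehicle was −0.05 at 300 nmol/min and −0.23 at 30 nmol/min, beside −0.11 and −0.11 over all tested probes. Genes detected on at least 5 arrays are described by list, with the prostanoid synthase PRXL2B added. As for the markers, each gene was read by 1 probe, and detection on its other probes is not counted.

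Arachidonate release had 5 of 13 measured genes detected, of which LPCAT3, an acyltransferase that places arachidonate into phospholipids, was detected on all 10 arrays and differed from vehicle by 0.20 ± 0.20 at 300 nmol/min (adjusted p = 0.646). PLA2G15, a lysosomal phospholipase, was detected on 8 arrays, with a difference of 0.15 ± 0.55 at 300 nmol/min (adjusted p = 0.912). The cytosolic phospholipase PLA2G4A, the usual supplier of arachidonate to the cyclooxygenases, was detected on no array. Other prostanoid synthases had 2 of 7 genes detected, on 1 and 3 arrays. The latter, PRXL2B, was detected on no vehicle array and had the smallest adjusted p of the 14 tested genes at 300 nmol/min. It stood at −1.55 ± 0.35 at 300 nmol/min (adjusted p = 0.172) and −0.55 ± 0.35 at 30 nmol/min (adjusted p = 0.525), against vehicle values below detection. Of 10 measured prostanoid receptors and related nuclear receptors 1 was detected, on 1 array, and none could be tested.

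Transport and later breakdown had 2 of 6 gene names detected, with PTGR3 and ZADH2 counted separately. Of these PTGR1, a reductase that acts on prostaglandins after HPGD, was detected on 8 arrays. It stood at −0.51 ± 0.44 at 300 nmol/min (adjusted p = 0.591) and −0.65 ± 0.44 at 30 nmol/min (adjusted p = 0.555). Other arachidonate oxidation had 2 of 7, with EPHX2, an epoxide hydrolase, detected on 5 arrays and no vehicle array (0.32 ± 0.43 at 300 nmol/min, adjusted p = 0.738). Among 12 genes known to regulate PTGS2 transcription or mRNA decay 5 were detected. ELAVL1, an RNA-binding protein known to stabilise PTGS2 mRNA in human cells, was detected on 9 arrays, 1 of them vehicle, with a log2 difference of 0.94 ± 0.34 at 300 nmol/min (adjusted p = 0.293) and 0.86 ± 0.34 at 30 nmol/min (adjusted p = 0.404). The transcription factors CEBPD (9 arrays) and RELA (7 arrays) differed by 0.04 ± 0.31 and −0.08 ± 0.31 at 300 nmol/min, and the cytokine IL6 (5 arrays, none of them vehicle) by −0.17 ± 0.60, with adjusted p = 0.963, 0.920 and 0.908. TNF, IL1B and NFKB1 were detected on no array.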

How the data were processed

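Values came from the deposited scanner files of 10 one-colour (Cy3) Agilent bovine arrays. Their intensity per spot, the processed signal, was background-subtracted by the authors in Feature Extraction 11.5.1.1, with surrogates for low values, per the file headers (10.5.1.1 in the submitters' processing notes), and not scaled between arrays. The deposited flags, coded 0 or 1 (a score per spot, per the file headers), mark spots well above background and outliers, and outlier spots were dropped. The authors' series matrix holds log2 values. Its values matched the scanner files' log2 processed signal, scaled by the all-probe 75th percentile and centred on probe medians, to within 0.05 in 99.97% or more of an array's values. Its column medians ran from −0.31 to 0.22. It served as an alternative.

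Spots of a probe were averaged, log2 values were scaled as the report describes, and differences came from limma 3.58.1 (lmFit and eBayes, R 4.3.3) on all 10 arrays, with 1 coefficient per group. A gene's brightest tested probe is the one with the highest mean scaled log2 level. Intervals are 95% intervals of the fitted difference. Other steps ran in Python 3.11.15 (numpy 2.4.6, pandas 2.3.3, figures with matplotlib 3.10.9). On simulated data for 300 nmol/min against vehicle (8932 probes, 200 changed), 8.5% of 2-fold and 66.5% of 4-fold changes were recovered. The number of arrays limits the precision.

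Replicate numbers, from the titles, were used as a block only in an alternative fit, and the reported fit has no pairing. Same-numbered samples of the senktide groups deviated together, at r = 0.487, 0.494, 0.565 and 0.574, which does not show that the numbers pair them. Number and slide go together: differently numbered arrays reached 0.544 and 0.492 within slide 3 and 0.413 and 0.417 between slides 1 and 2. The enzymes, the other lists and the markers were chosen with earlier results of these data known. Names are those of the files, and genes of the lists were named through RefSeq symbols. Exons, promoters and proteins were not analysed here. The named genes were all 8 enzymes, listed genes detected on at least 5 arrays or past the threshold, the 5 genes most like PTGS2 and the 3 most like AKR1B1. PRXL2B, and the further genes named as not detected, were chosen after their values were seen.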

Additional observations from a re-analysis of the deposited data

How the results depend on the processing

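No enzyme probe passed the threshold as reported. With quantile normalization 1 passed (PTGS2) in each comparison with vehicle, with normexp correction and quantile normalization 1 at 300 nmol/min and 1 pooled, and with detection required on at least 4 arrays 1 pooled (PTGS2, adjusted p = 0.04997). Leaving out each array in turn gave 0 to 1 pooled, the 1 being PTGS2 without senktide300 replicate 3 (2.596, adjusted p = 0.042), and 0 to 0 in the other comparisons. Over all probes quantile normalization called 142 higher and 3 lower at 300 nmol/min, 103 and 4 at 30 nmol/min and 213 and 10 pooled, normexp with quantile normalization 82 and 25, 29 and 7, and 132 and 46, against 1 and 0, 0 and 0, and 2 and 1 as reported. In the same order they were 30 and 2, 32 and 2, and 34 and 3 without vehicle replicate 1, and 38 and 12, 24 and 12, and 47 and 14 without vehicle replicate 2. The cause was not tested. The passing PTGS2 values rest on vehicle signals below detection.

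The sign of the PTGES difference varied. Under the 2 all-probe scalings and the series matrix all probes shift alike, and PTGES stayed −0.06 (300 nmol/min) and 0.08 (pooled) from the median of all tested probes, as in the scaling used here. At 300 nmol/min it was 1.01 with the 75th percentile over all probes, 1.26 with the median over all probes, 0.40 with quantile normalization, 1.01 with the authors' series matrix, and −0.86 to 0.53 with 1 array left out. At 30 nmol/min it was −0.11 with low values raised to the lowest detected signal, −0.16 as the mean of its 2 tested probes, and −0.60 to 0.79 with 1 array left out. Pooled it was 1.08, 1.34 and 0.46 with those first 3 scalings, 0.025 with normexp, 1.08 with the series matrix, 0.051 with slide or replicate number as a block or with slides 1 and 2 alone, and −0.73 to 0.66 with 1 array left out. AKR1B1 at 30 nmol/min was −0.081 to 0.55 with 1 array left out. PTGS2 at 300 against 30 nmol/min was −0.083 with slides 1 and 2 alone and −0.12 to 0.53 with 1 array left out.

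The bound on PTGS2, whose alternatives were added after seeing the data, was 3.48, 2.69 and 3.06 (300, 30, pooled) with the 75th percentile over all probes and 4.15, 3.23 and 3.66 with the median over all probes. With 1 array left out it was 1.19 to 2.00, 1.21 to 1.68 and 1.09 to 1.83, and at 30 nmol/min none without vehicle replicate 2. With low values raised to the lowest detected signal the PTGS2 difference was 0.63 at 300 nmol/min and 0.37 at 30 nmol/min.

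With the replicate block PTGS2 differed by 2.93 at 300 nmol/min (adjusted p = 0.227) and 2.67 at 30 nmol/min (adjusted p = 0.347), and no enzyme probe passed, so adding that block changed no call. Vehicle arrays share number and slide with the senktide arrays numbered 1 and 2. With 2 vehicle arrays their deviations mirror each other, so their correlations (0.123 and 0.179 for number 1, −0.188 and −0.197 for number 2) do not show whether the numbers pair them. No signal below 9.47 to 14.9, by array, was detected, and some signals above these values were not detected either. An example is the AKR1B1 probe at base 1118, at 19.0 on senktide300 replicate 1, where the lowest detected signal was 14.9.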
